A study of Sus scrofa with 4 samples.

Results

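The genes described here are the metalloproteinases of the ADAM, ADAMTS and MMP families and the tissue inhibitors of metalloproteinases (TIMPs), taken as every entry of the deposited expression table whose symbol is ADAM, ADAMTS or MMP followed by a number, or TIMP1 to TIMP4. This gave 45 of 16026 genes: 11 ADAM, 18 ADAMTS, 13 MMP and 3 TIMP genes. A further 15 symbols of these families in the RefSeq gene table of the same pig build, among them MMP9 and TIMP4, were not analysed here. Polyadenylated RNA was sequenced from induced pluripotent stem cells of the Bamei black pig, with a development stage of 26.5 days in the labels for all libraries. The negative control genotype had 2 libraries (control 1 and 2), and the genotype with short hairpin RNA against LIN28A (shLin28a) had 2 (knockdown 1 and 2). The deposited table gives the authors' mean of both knockdown libraries under the name shLin28a3. The labels do not describe the hairpin or the vector, nor whether libraries came from separate cultures or clones, so p-values reflect nothing beyond the variation among these 4 libraries, perhaps only technical.

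ADAM proteases sit in the cell membrane and release the outer parts of other membrane proteins, such as Notch, growth factor precursors and adhesion molecules. ADAMTS proteases are secreted and cut proteoglycans, procollagens and microfibril proteins, and MMPs degrade collagens and other matrix proteins, some of them from the cell surface. TIMPs block the active site of MMPs and, in the case of TIMP3, also of several ADAM and ADAMTS enzymes; in early embryonic and neural tissue these enzymes remodel the matrix and set the strength of cell-to-cell signals.

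The summed expected counts were 7125640 to 11847343 in the controls, 8061417 in knockdown 1 and 2400985 in knockdown 2, so knockdown 2 gives the least precise values. LIN28A itself had 184 and 59 counts in the controls against 12 and 3 under the hairpin, and its log2 fold change was -2.92 ± 0.49 (SE); the adjusted p was 0.259 by edgeR's quasi-likelihood test with Benjamini-Hochberg adjustment. No gene passed an adjusted p of 0.05 in that test, in either direction (0% called). At an unadjusted p under 0.05, 4.26% of the 11967 tested genes were higher in the knockdown and 3.45% lower. DESeq2 called 0.761% higher and 0.27% lower at an adjusted p under 0.05. Of the 6 tested markers of pluripotent cells, 3 had both knockdown libraries below the lower control, beside 22.9% of all tested genes. They were LIN28A, which is the hairpin's own target, SALL4, and EPCAM, which had 30 counts or fewer in each library. None had both above the higher control, beside 18.8% of all tested genes. In TMM-scaled CPM (counts scaled to a common library total), in the order control 1 and 2 against knockdown 1 and 2, SALL4 had 81.8 and 85.8 against 34.2 and 18.8 (DESeq2 adjusted p 0.0124, edgeR 0.301), and EPCAM 2.23 and 3.95 against 0.116 and 1.05. POU5F1 had 38.1 and 34.8 against 37.4 and 20.9, and SOX2 68.6 and 62.5 against 83.0 and 55.4, and both overlapped. NANOG stayed at 7.37 counts or fewer in each library on both of its entries. The 20 fibroblast markers in the table summed to 995 and 1697 against 1323 and 3907 CPM, without TMM scaling; DCN was at 0 in both knockdown libraries and LUM at 0 in all but knockdown 1. The 7 trophectoderm and epithelial markers summed to 47.4 and 81.1 CPM in the controls against 14.9 and 7.50 under knockdown. Of these, KRT8 had 22.7 and 61.2 against 1.74 and 2.92 CPM, and KRT18 and CDX2 were also lower in both knockdown libraries. GATA3 overlapped, at 19.8 and 7.30 against 11.7 and 4.58 CPM, and KRT19, TFAP2C and ELF5 had 2 counts or fewer per library. The 8 blood cell markers summed to 5.66 and 10.2 against 7.69 and 32.1 CPM. In knockdown 2, LCP1, SPI1 and CORO1A had 15.8, 7.50 and 6.66 CPM, while PTPRC, CSF1R and ITGAM had 1 count each. CD14 and CD68 were lowest in knockdown 2. The pluripotent cell markers summed to 284 and 260 against 220 and 111 CPM.

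Levels are given on 2 scales. Normalised CPM (CPM with TMM scaling factors) compares 1 gene between libraries, and FPKM, which is also divided by transcript length, compares genes with each other. Values stand in the order control 1, control 2, then knockdown 1, knockdown 2. TIMP2 had the highest mean over the 4 libraries (387 FPKM), followed by MMP2 (107 FPKM), MMP14 (88.1 FPKM), TIMP1 (72.2 FPKM) and ADAM10 (60.4 FPKM). A mean of at least 5 FPKM was reached by 16 genes, and 17 stayed below 1 FPKM. Of the ADAMTS genes, ADAMTS7 at 12.0 FPKM, ADAMTS6 at 10.4 FPKM and ADAMTS12 at 8.33 FPKM had the highest means.

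**Figure D1:**
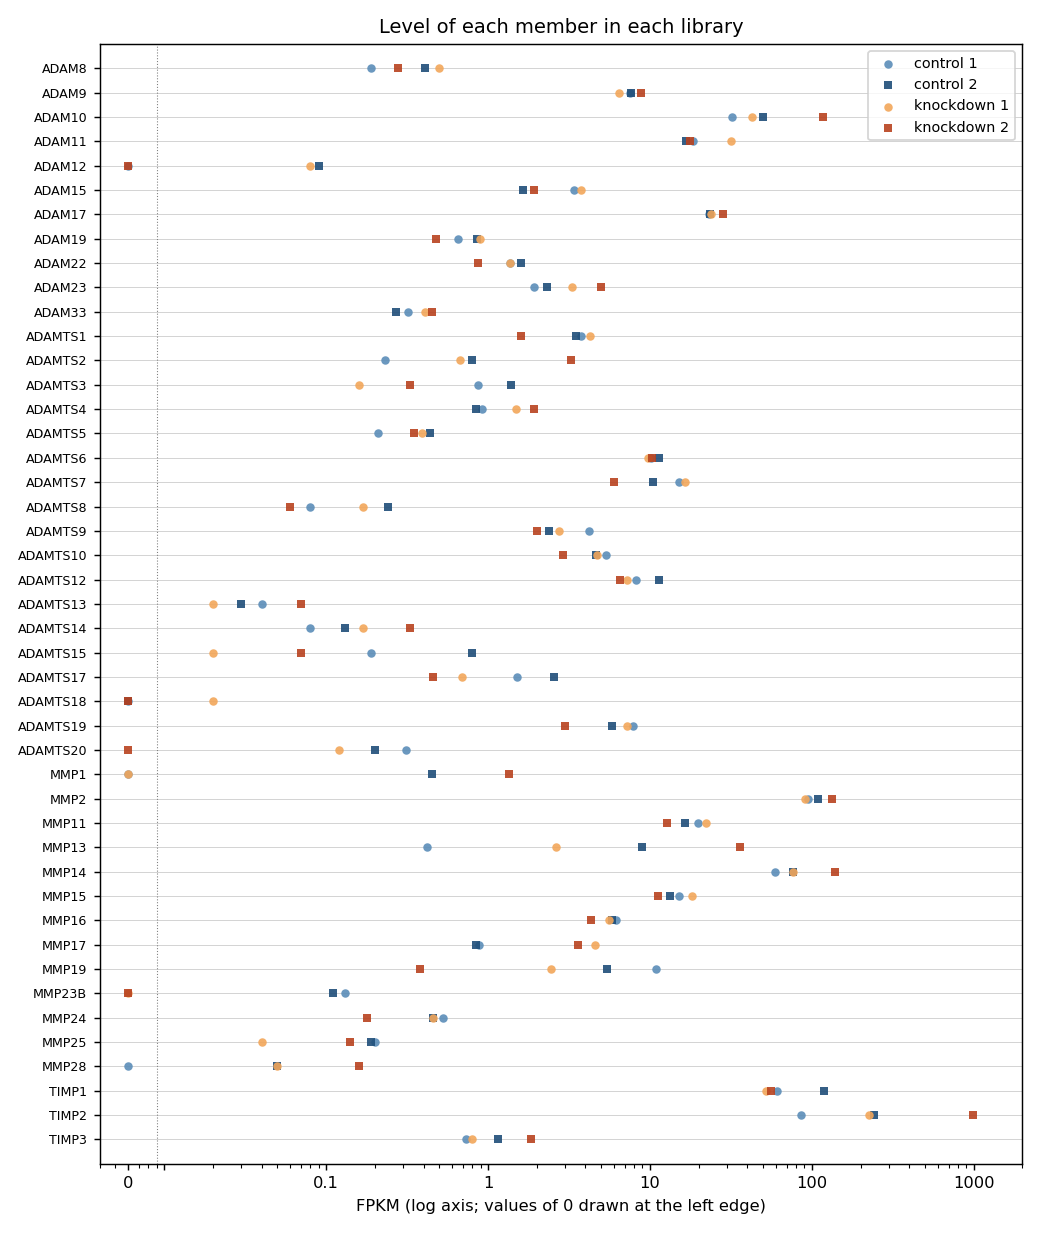
FPKM (horizontal log axis) of the 45 genes in each of the 4 libraries, with values of 0 drawn at the left edge. TIMP2, MMP2, MMP14, TIMP1 and ADAM10 have the highest means, TIMP2 and MMP13 spread widely within both groups, and MMP17 is near 0.9 FPKM in both controls and at 4.58 and 3.60 FPKM in the knockdown libraries.

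The filter on low counts left 34 of the 45 genes for testing, and none was called by edgeR (0% of all genes called, adjusted p from 0.179 to 0.981 over the 34). DESeq2 gave an adjusted p for 40 of the 45. It called 1 higher, MMP17, and none lower, beside 0.761% higher and 0.27% lower of all genes. At an unadjusted edgeR p under 0.05, 4 were higher (MMP17, ADAM23, ADAM11 and ADAMTS4) and 3 lower (ADAMTS17, MMP19 and ADAMTS3), which is 20.6% of the 34 beside 7.71% of all tested genes. The 2 groups of libraries did not overlap in normalised CPM for 11 of the 34 (32.4%), 6 higher and 5 lower in the knockdown, beside 41.7% of all tested genes (18.8% higher, 22.9% lower), so the share lies below that of all genes. The median log2 fold change was 0.24, beside 0.01 over all tested genes; 21 genes were above zero and 13 below it, where 51.2% of all tested genes were above and 48.8% below. With total counts in place of TMM the 2 medians were -7.9e-05 and -0.18, and with upper-quartile factors 0.13 and -0.08.

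**Figure D2:**
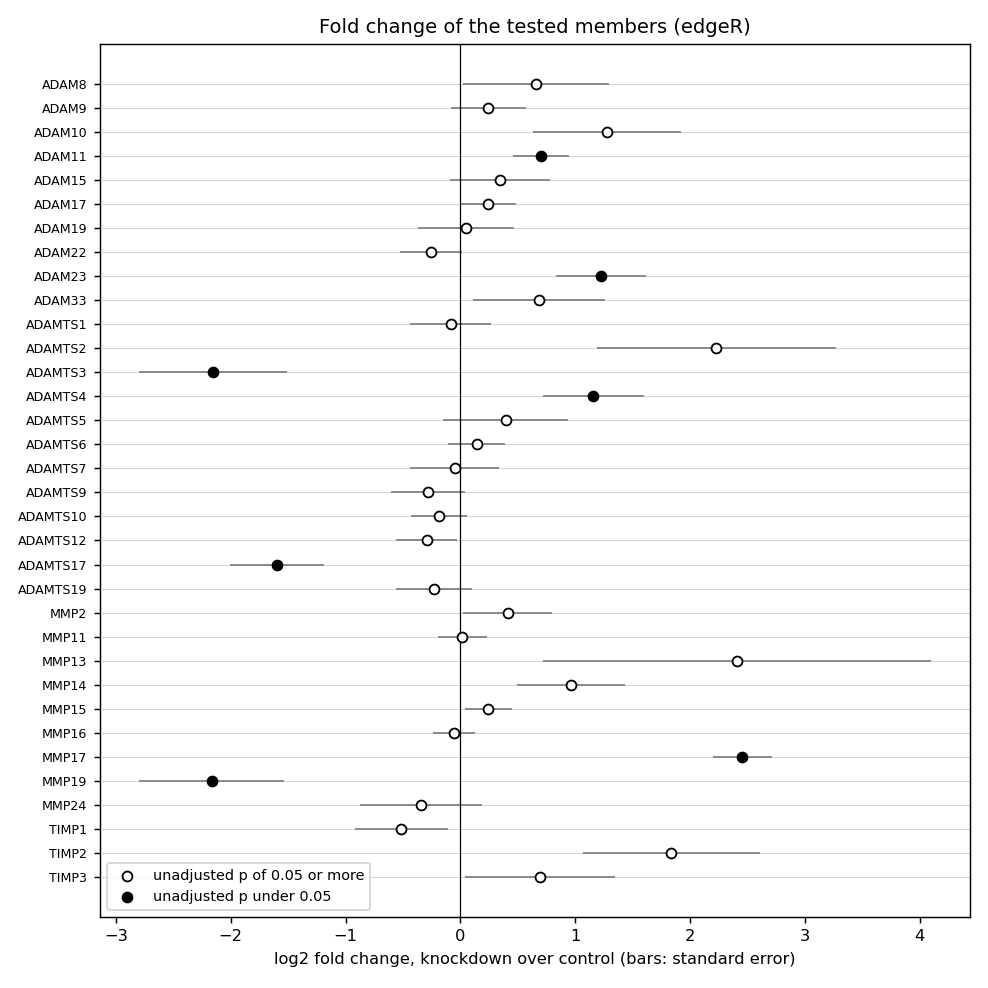
Log2 fold change of knockdown over control (horizontal axis) with its standard error from edgeR for the 34 tested genes, by family; filled points have an unadjusted p under 0.05. MMP17 stands at 2.46 with a standard error of 0.26, and MMP13 at 2.41 with one of 1.69.

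MMP17, a membrane-type MMP anchored to the cell surface by a glycolipid (MT4-MMP), was several times higher in the knockdown. It had 3.62 and 3.56 normalised CPM in the controls, against 19.3 and 20.4 under knockdown. Both knockdown libraries lay far above both controls, and the 2 libraries of each group differed little. The raw counts were 47 and 27 against 166 and 39; exact Poisson intervals (95%) of the unscaled CPM were 2.91 to 5.28 and 2.50 to 5.51 in the controls, and 17.6 to 24.0 and 11.6 to 22.2 in the knockdown libraries. In FPKM the group means were 0.860 ± 0.0283 and 4.09 ± 0.693 (SD, n = 2). The fold change was 5.49, or 2.46 on the log2 scale (SE 0.26). The unadjusted edgeR p was 0.000157, the adjusted p was 0.179 in edgeR and 5.06e-05 in DESeq2, and over the alternatives without a term for the library number the adjusted p ran from 5.06e-05 to 0.675. The log2 fold change stayed between 2.40 and 2.50 when each library was left out in turn.

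The other membrane-type MMPs showed smaller differences. MMP14 (MT1-MMP), a collagenase of the cell surface that also activates the precursor of MMP2, had 192 and 255 normalised CPM in the controls, against 255 and 619 under knockdown. Control 2 and knockdown 1 were level, and knockdown 2 alone was high. In FPKM the groups were separate only by 76.87 in control 2 against 76.88 in knockdown 1. The log2 fold change of 0.96 ± 0.47 (SE, edgeR adjusted p 0.606) was 0.16 without knockdown 2 and 1.46 without knockdown 1. MMP15 (MT2-MMP) had 52.3 and 46.0 against 62.5 and 53.3 normalised CPM, a log2 fold change of 0.24 (SE 0.20, edgeR adjusted p 0.683). MMP16 (MT3-MMP) had 67.0 and 65.5 against 62.7 and 64.8, a log2 fold change of -0.06 (SE 0.19, edgeR adjusted p 0.920). The groups did not overlap for either gene, but by margins of about 1 normalised CPM. On the FPKM scale MMP15 overlapped, at 15.2 and 13.4 against 18.1 and 11.2. MMP24 (MT5-MMP) stayed at 29 counts or fewer per library, with a log2 fold change of -0.34 (SE 0.53), and MMP25, the other glycolipid-anchored member, had 14, 8, 2 and 2 counts, too few to be tested. MMP17 remained far below MMP14 in level: in FPKM it was at 0.0148 and 0.0109 of MMP14 in the controls, against 0.0596 and 0.0259 under knockdown.

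Among the secreted MMPs, MMP19 was lower in both knockdown libraries. MMP19 cleaves basement membrane proteins such as collagen IV and nidogen. It had 21.5 and 11.1 normalised CPM in the controls, against 4.99 and 1.05 under knockdown, from 280, 84, 43 and 2 counts. The groups did not overlap, and the libraries within each group differed widely. The exact Poisson interval of the unscaled CPM was 0.101 to 3.01 in knockdown 2, against 3.86 to 7.18 in knockdown 1. The log2 fold change was -2.17 (SE 0.63). The unadjusted edgeR p was 0.0167 and the adjusted p 0.541 in edgeR and 0.168 in DESeq2. The log2 fold change lay between -3.96 and -1.68 when each library was left out, the first value without knockdown 1.

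MMP2, the gelatinase that degrades denatured collagen and collagen IV, was among the most abundant of the 45 genes in every library. It had 255 and 300 normalised CPM in the controls, against 249 and 492 under knockdown; the log2 fold change of 0.41 (SE 0.39, edgeR adjusted p 0.709) was -0.18 without knockdown 2. MMP11 (stromelysin 3), which is activated inside the cell by furin, had 77.0 and 66.0 against 78.1 and 66.4 normalised CPM. Its values in the 2 groups coincided, with a log2 fold change of 0.02 (SE 0.21, edgeR adjusted p 0.981).

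MMP13 (collagenase 3), which cuts fibrillar collagen, varied more within the groups than between them. It had 1.00 and 21.9 normalised CPM in the controls, against 6.38 and 117 under knockdown. Control 2 exceeded knockdown 1, and the log2 fold change of 2.41 had an SE of 1.69 and an edgeR adjusted p of 0.638, and became -0.82 without knockdown 2. MMP1 (interstitial collagenase) had 0 and 6 counts in the controls, against 0 and 6 under knockdown, so it was detected in control 2 and knockdown 2 only, the 2 libraries in which MMP13 was highest. A count of 0 allows up to 3 counts, or 0.253 CPM in control 1 and 0.372 CPM in knockdown 1, for counting error only. Both genes lie in the MMP gene cluster of chromosome 9 of Sscrofa11.1, MMP1 at 33411738 to 33420205 and MMP13 at 33549003 to 33616700, with MMP3 and MMP12 between them.

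**Figure D3:**
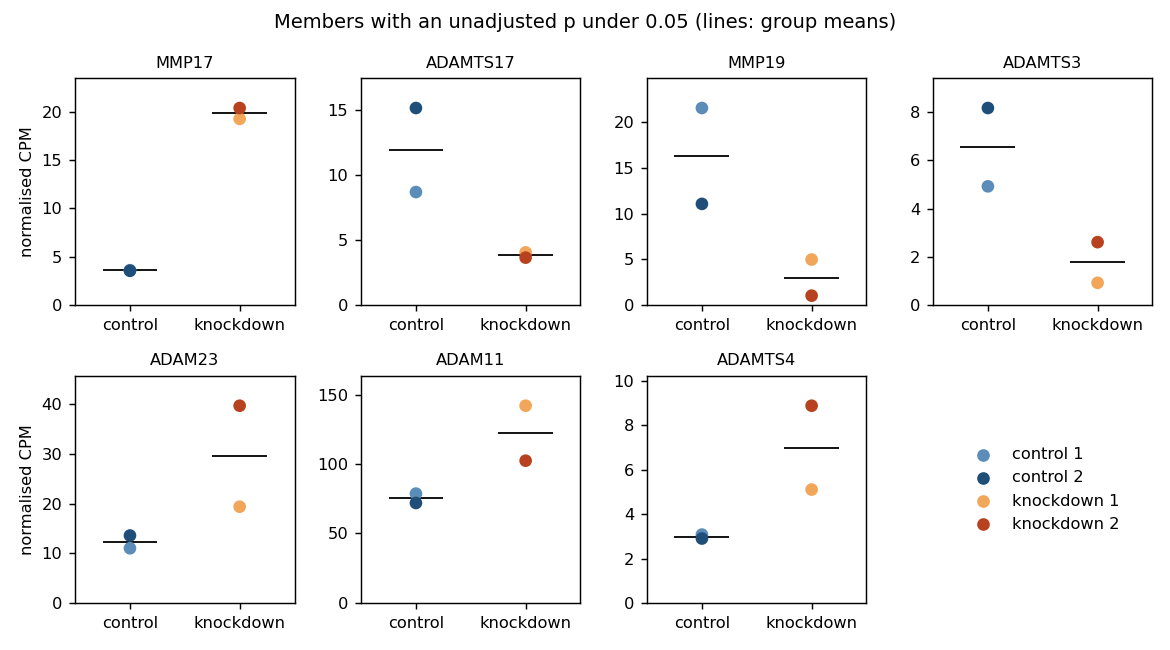
Normalised CPM (vertical axis, from 0) in each library for the 7 genes with an unadjusted p under 0.05; lines are group means. In all 7 the control and knockdown libraries do not overlap, and the libraries of each group lie closest together, relative to their level, for MMP17.

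Of the catalytic ADAMs, 7 were tested, with log2 fold changes from 0.05 to 1.28 and a median of 0.35, and none had an unadjusted p under 0.05. ADAM9 turned to -0.01 with total counts, and ADAM19 to -0.10 with total counts and -0.03 with upper-quartile factors. ADAM10, the main sheddase of Notch receptors and of N- and E-cadherin, had 61.9 and 99.1 normalised CPM in the controls, against 84.0 and 309 under knockdown. Knockdown 1 lay between the 2 controls. The log2 fold change of 1.28 (SE 0.64, edgeR adjusted p 0.606) was 0.04 without knockdown 2 and 1.94 without knockdown 1. ADAM17, the sheddase of tumour necrosis factor and of several ligands of the EGF receptor, had 78.3 and 80.5 against 79.3 and 110 normalised CPM. Both controls and knockdown 1 were nearly equal, and the log2 fold change was 0.24 (SE 0.24, edgeR adjusted p 0.718). On the FPKM scale ADAM17 did not overlap, at 23.2 and 23.6 against 23.8 and 28.2. The ratio of ADAM10 to ADAM17 in FPKM was 1.39 and 2.12 in the controls, against 1.79 and 4.13 under knockdown.

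ADAM9, a sheddase of several growth factor receptors and their ligands, had 7.58 and 7.67 FPKM against 6.48 and 8.84, and the knockdown libraries lay on either side of the controls. Its log2 fold change was 0.24 (SE 0.33, edgeR adjusted p 0.793). ADAM15 had 9.54 and 4.88 against 10.7 and 7.32, which overlapped, in normalised CPM. ADAM8, ADAM19 and ADAM33 stayed below 1 FPKM in every library, and ADAM12, which marks activated mesenchymal cells and the placenta, had 2 counts at most.

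The ADAMs without a working catalytic site act as receptors at synapses and axons, where they bind the secreted LGI proteins, and 2 of the 3 were higher in both knockdown libraries. ADAM23 had 11.0 and 13.6 normalised CPM in the controls, against 19.4 and 39.7 under knockdown. The groups did not overlap, with a log2 fold change of 1.22 (SE 0.39). In edgeR the unadjusted p was 0.0244 and the adjusted p 0.569. The log2 fold change was 0.64 without knockdown 2 and 1.69 without knockdown 1. ADAM11 had 78.7 and 72.0 normalised CPM in the controls, against 142 and 102 under knockdown. Its log2 fold change was 0.70 ± 0.25 (SE), and edgeR gave an unadjusted p of 0.0337 and an adjusted p of 0.606. On the FPKM scale ADAM11 overlapped, at 18.6 and 16.7 against 31.9 and 17.7; FPKM carries no TMM factor. ADAM22, the remaining one, had 11.3 and 14.1 against 11.5 and 9.41 normalised CPM. Of the 8 tested neural markers, 4 had both knockdown libraries above the higher control, beside 18.8% of all tested genes. None had both below the lower control, and the median log2 fold change was 0.80. The 4 were DCX, NEUROD4, STMN2 and NEUROD1. ELAVL3, MAP2, PAX6 and NEUROG2 overlapped, with log2 fold changes of 0.52, 0.07, -0.21 and -0.54. NEUROD4 had 6.39 and 8.83 against 31.6 and 39.7 normalised CPM (DESeq2 adjusted p 0.000111, edgeR 0.219), and DCX had 64.7 and 56.7 against 206 and 129 (DESeq2 adjusted p 0.0101, edgeR 0.327). The 10 neural markers in the table together summed to 794 and 581 CPM against 1157 and 576, without TMM scaling. Their part in the values of ADAM11 and ADAM23 was not tested. Of the 3 tested LGI partner genes, LGI3 and LGI4 were lower in both knockdown libraries and LGI2 higher, with log2 fold changes of -0.98, -1.09 and 0.56 and edgeR adjusted p of 0.606, 0.569 and 0.606. LGI3 had 6.16 and 11.1 against 4.41 and 4.18 normalised CPM. LGI4 had 7.93 and 7.91 against 4.06 and 3.14 normalised CPM.

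In the ADAMTS family, 12 genes were tested, 4 with a log2 fold change above zero and 8 below it, and the median was -0.14. ADAMTS17, a microfibril-associated protease, was lower in both knockdown libraries. It had 8.70 and 15.2 normalised CPM in the controls, against 4.06 and 3.66 under knockdown, from 113, 115, 35 and 7 counts. The 2 knockdown libraries were close and both lay below the lower control. The unadjusted p was 0.0102 and the adjusted p 0.440 in edgeR for a log2 fold change of -1.60 (SE 0.41), and the log2 fold change ranged from -1.95 to -1.15 when each library was left out. Its closest relative ADAMTS19 had 44.9 and 34.1 against 42.5 and 23.5 normalised CPM, which overlapped, and a log2 fold change of -0.23 (SE 0.33, edgeR adjusted p 0.811).

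The procollagen N-proteinases, which trim the amino end of fibrillar procollagens, had log2 fold changes of opposite sign. ADAMTS3, which also activates the lymphatic growth factor VEGFC, had 4.93 and 8.17 normalised CPM in the controls, against 0.928 and 2.61 under knockdown, from 64, 62, 8 and 5 counts. Both knockdown libraries were below both controls, and the log2 fold change was -2.15 (SE 0.64). In edgeR the unadjusted p was 0.0187 and the adjusted p 0.541. ADAMTS2 had 1.31 and 4.61 against 4.06 and 25.1 normalised CPM. Knockdown 1 lay between the controls, and the log2 fold change of 2.23 (SE 1.04) was 0.48 without knockdown 2. ADAMTS14 had 10 counts or fewer in each library.

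The proteoglycan-cutting ADAMTS enzymes stayed below a mean of 5 FPKM. ADAMTS4, an aggrecanase, had 3.08 and 2.90 normalised CPM in the controls, against 5.10 and 8.88 under knockdown, from 40, 22, 44 and 17 counts. The groups did not overlap, and the log2 fold change was 1.16 (SE 0.44). In edgeR the unadjusted p was 0.0438 and the adjusted p 0.606. ADAMTS9, which cleaves versican, had 29.7 and 17.0 against 19.3 and 19.3, and ADAMTS1 had 13.2 and 12.8 against 15.4 and 7.84 normalised CPM. ADAMTS15 had 13 and 32 counts in the controls, against 1 and 1 under knockdown, too few to pass the filter, while ADAMTS8, which lies 14450 bases from it on chromosome 9, had 6 and 11 against 9 and 1. ADAMTS20, known in mice for a role in pigment cell migration, had 25, 9, 6 and 0 counts.

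The 4 ADAMTS genes with the highest mean FPKM (ADAMTS7, ADAMTS6, ADAMTS12 and ADAMTS19) overlapped between the groups in normalised CPM. ADAMTS7 and ADAMTS12 both cleave cartilage oligomeric matrix protein. ADAMTS7 had 98.9 and 70.4 against 108 and 53.4 normalised CPM, a log2 fold change of -0.05 (SE 0.39, edgeR adjusted p 0.972). ADAMTS12 had 66.6 and 96.5 against 60.3 and 73.2, a log2 fold change of -0.29 (SE 0.26, edgeR adjusted p 0.702); on the FPKM scale it did not overlap, at 8.16 and 11.5 against 7.20 and 6.50. ADAMTS6, a fibrillin-associated enzyme, had 58.5 and 67.2 against 57.8 and 82.0 normalised CPM, a log2 fold change of 0.14 (SE 0.25, edgeR adjusted p 0.841) that was -0.09 with total counts. Its relative ADAMTS10 had 15.5 and 13.8 against 13.9 and 11.5, a log2 fold change of -0.19 (SE 0.24).

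Of the inhibitors, TIMP2 was the most abundant and the most variable. TIMP2 blocks MMPs and, bound to MMP14, presents the MMP2 precursor for activation. It had 94.0 and 203 normalised CPM in the controls, against 199 and 865 under knockdown. Control 2 and knockdown 1 were level, and knockdown 2 was far above both. In FPKM the values were 85.8 and 244 against 226 and 992. The count-based log2 fold change was 1.84 (SE 0.77), with an unadjusted p of 0.0605 and an adjusted p of 0.606 in edgeR. The log2 fold change was 0.40 without knockdown 2 and 2.54 without knockdown 1. TIMP1, which inhibits MMP14 poorly, had 32.0 and 64.8 against 28.0 and 40.8 normalised CPM. Its log2 fold change of -0.51 (SE 0.40, edgeR adjusted p 0.666) was 0.10 without control 2. On the FPKM scale TIMP1 did not overlap, at 61.2 and 119 against 52.3 and 55.8. TIMP3, the matrix-bound inhibitor, had 3.00 and 4.88 against 3.36 and 10.5 normalised CPM, a log2 fold change of 0.69 (SE 0.65, edgeR adjusted p 0.710) that was -0.23 without knockdown 2. The summed FPKM of the 3 inhibitors was 148 and 364 in the controls, against 279 and 1049 under knockdown, of which TIMP2 made up 58.1%, 66.9%, 81.0% and 94.5%.

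Of the 5 most abundant genes, TIMP2, ADAM10 and MMP14 were lowest in control 1 and highest in knockdown 2. Relative to control 1, normalised CPM in knockdown 2 was 9.21 times as high for TIMP2, 4.99 times for ADAM10, 3.22 times for MMP14, 1.93 times for MMP2 and 1.27 times for TIMP1. In knockdown 1 these ratios were 2.12, 1.36, 1.33, 0.974 and 0.873. On the FPKM scale, which carries no TMM factor, the ratio of TIMP1 in knockdown 2 was 0.913. In normalised CPM, 9 of the 34 tested genes were lowest in control 1 and highest in knockdown 2 (26.5%). The share over all tested genes was 19.7%. The 9 were ADAM10, ADAM17, ADAM23, ADAMTS2, ADAMTS5, MMP13, MMP14, TIMP2 and TIMP3. Without the TMM factor, ADAMTS5 was highest in control 2, at 0.21 and 0.44 against 0.39 and 0.35 FPKM. ADAM17 was nearly flat in unscaled CPM, at 85.9 and 85.8 against 84.8 and 87.5. Of the 16 tested fibroblast markers, 14 were lowest in control 1 and highest in knockdown 2 in normalised CPM. The summed normalised CPM of the 16 was 1.76, 1.37 and 5.43 times that of control 1 in control 2, knockdown 1 and knockdown 2. The filter on low counts removed DCN with 49, 2, 0 and 0 counts and COL6A3 with 2, 3, 0 and 0. It also removed S100A4 with 11, 5, 6 and 1 counts and LUM with 0, 0, 2 and 0. None of these was highest in knockdown 2. The part of the fibroblast markers in the values of the 9 protease and TIMP genes was not tested. In bulk RNA a different share of cells of a type and a different amount of RNA per cell cannot be told apart.

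**Figure D4:**
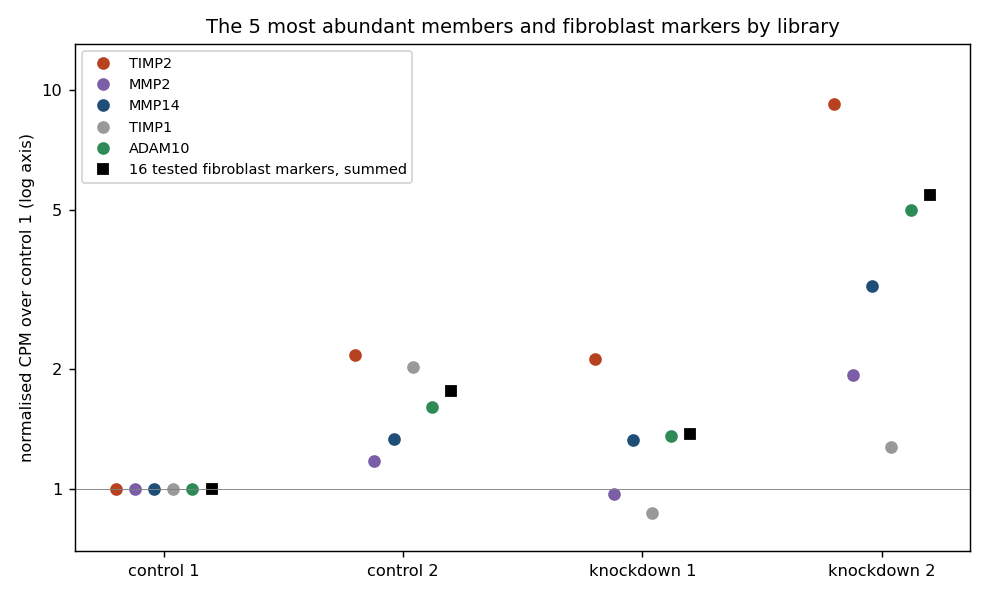
Normalised CPM over that of control 1 (vertical log axis) in each library for the 5 genes with the highest mean FPKM and for the sum of the 16 tested fibroblast markers (black squares). TIMP2, ADAM10, MMP14 and the markers are lowest in control 1, similar in control 2 and knockdown 1, and highest in knockdown 2.

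TIMP2 also differed between libraries in the length over which its reads were counted. The deposited FPKM and counts together imply an effective length of 1201 and 888 bases in controls 1 and 2, against 941 and 695 bases in knockdown 1 and 2. RSEM weights this length by the transcript variants it assigns reads to, and the highest was 1.73 times the lowest. Of the 20 genes with at least 10 counts and 1 FPKM in every library, ADAM17 came next at 1.19 times and MMP11 at 1.13, and the others differed by 1.04 times or less. The FPKM of TIMP2 in knockdown 2 was 11.6 times that of control 1, against 9.21 times in normalised CPM, and no TMM factor enters the first. The count test does not use this length, and transcript variants were not given separately in the table.

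**Figure D5:**
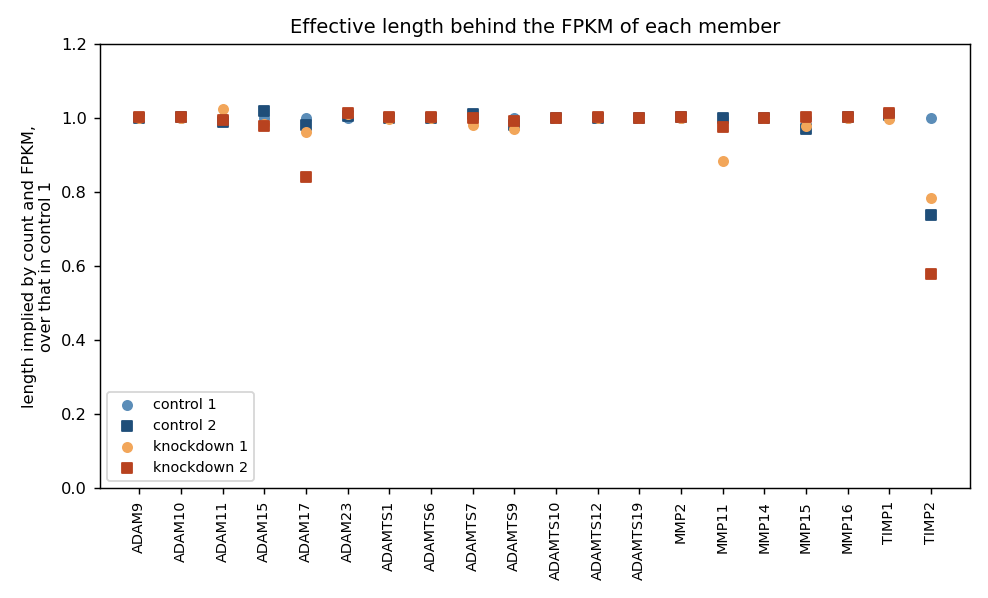
Effective length implied by the deposited count and FPKM, divided by that in control 1 (vertical axis, from 0), for the 20 genes with at least 10 counts and 1 FPKM in every library. TIMP2 falls below 0.8 in the other 3 libraries, while all others but ADAM17 and MMP11 stay near 1.

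Other genes of extracellular proteolysis were read from lists of ADAMTS-like proteins, protease inhibitors and activators, ADAM partners, astacin proteases and substrates, of which 68 were tested. None was called by edgeR; 5 were higher and 10 lower at an unadjusted p under 0.05, beside 4.26% and 3.45% of all tested genes. DESeq2 called 5 (DLL3 and NCAN higher, NID1, NID2 and COL4A2 lower), beside 0.761% higher and 0.27% lower of all genes. At the unadjusted threshold, 3 of 20 genes listed as shed membrane proteins were higher and 1 lower, and 1 of 19 matrix substrates was higher and 4 lower. At the same threshold, 1 of 11 ADAM partners was higher and 1 lower. Among inhibitors and activators 2 of 10 were lower, as were 2 of 4 astacin proteases and their helpers. The median log2 fold change of the 68 was 0.11. Of the matrix substrates, the basement membrane linkers NID2 and NID1 were lower in both knockdown libraries. NID2 had 25.9 and 29.9 against 6.85 and 9.41 normalised CPM, with a log2 fold change of -1.83 ± 0.27 (SE); the adjusted p was 0.241 in edgeR and 0.00815 in DESeq2. NID1 had 189 and 217 against 57.2 and 87.3, with a DESeq2 adjusted p of 0.0101, and the collagen IV chain COL4A2 had 52.6 and 70.1 against 10.2 and 20.4, with one of 0.00562. NCAN, a brain proteoglycan that ADAMTS enzymes cleave, was higher, at 25.2 and 14.1 against 67.5 and 49.6 normalised CPM with a DESeq2 adjusted p of 0.0378.

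Of the genes listed as shed membrane proteins, DLL3 was higher in both knockdown libraries, at 49.3 and 47.3 against 236 and 134 normalised CPM. Its adjusted p was 0.263 in edgeR and 0.000276 in DESeq2. ERBB4, a neuregulin receptor that ADAM17 releases, had 1.85 and 1.71 against 5.57 and 5.75. The proprotein convertase PCSK5 had 62.3 and 78.5 against 37.0 and 38.1, and PCOLCE, which enhances the procollagen C-proteinases, had 104 and 133 against 57.2 and 65.2. The plasminogen activator PLAT had 118 and 98.7 against 73.1 and 55.9 normalised CPM. The groups were separate for each of them, and the edgeR adjusted p of ERBB4, PCSK5, PCOLCE and PLAT was between 0.377 and 0.569.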

How the data were processed

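Polyadenylated RNA was sequenced on the BGISEQ-500, per the labels' protocols. The tools that the submitters' processing notes list are Bowtie2 and RSEM 1.2.12, and the build is Sscrofa11.1. No label gives strandedness or read length. The deposited expected counts are the authors' RSEM estimates, not normalised between libraries; 5 of the 45 genes had a count that was not whole, which RSEM gives where reads are divided between genes. The other deposited values carry no unit in the header and were read as FPKM, because their ratio to the counts followed the summed counts of the libraries (median 0.998 to 1.00 relative to control 1 over 3670 genes). All 16026 identifiers matched the RefSeq table of the same build.

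Counts were rounded and tested with edgeR 4.0.16 (TMM, filterByExpr, quasi-likelihood test, no covariate; 2 residual and 3.30 shared degrees of freedom) under R 4.3.3. P-values were adjusted over all 11967 tested genes with a threshold of 0.05. DESeq2 1.42.0 and limma 3.58.1 on log2(FPKM + 1) were alternatives. The methods were also run on simulated counts with the same dispersion for all genes and independent libraries, a simpler case than these data. Libraries were numbered in accession order, which matches the final digit of their titles; no label says that equal numbers share a culture, batch or day, so the test has no term for the number. TMM factors were 1.10, 1.07, 1.07 and 0.798. Normalised CPM uses these factors. Genes given in full were those with an unadjusted p under 0.05 or a mean of at least 5 FPKM, and the TIMPs; ADAMTS2 and short values of other genes were added after their values were seen. The genes and lists were chosen with earlier results of these data known. Exact Poisson intervals and the floor of 3 counts cover counting error only.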

Additional observations from a re-analysis of the deposited data

How the results depend on the processing

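Over all tested genes, edgeR at an adjusted p of 0.05 called 2 higher and 6 lower with total counts only, and 28 higher and 12 lower without the filter on low counts (at least 1 count). DESeq2 called 96 higher and 34 lower, limma on log2(FPKM + 1) 1 lower, and limma on log2(FPKM + 0.1) 1 higher and 1 lower. Leaving out each library in turn gave 0 to 1110 higher and 0 to 94 lower, the most without knockdown 1. Among the protease and TIMP genes, MMP17 was the 1 called higher without the filter (adjusted p 0.0260 in edgeR) and by DESeq2. Leaving out each library called 0 to 5 higher, the 5 without knockdown 1 being ADAM10, ADAM23, MMP14, MMP17 and TIMP2. None was called lower in these settings, unlike in the fit with a replicate block. The fit without knockdown 1 tested 38 protease and TIMP genes and 12183 genes in all, the totals behind its counts above. With 1 library left in an arm, it is assumed to vary like the other group. The calls of such a fit were therefore not read as results for single genes. LIN28A had a log2 fold change of -2.92 in DESeq2 (adjusted p 0.0110), and -3.28 to -2.41 with a library left out.

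The median log2 fold change of these genes was 0.13 with upper-quartile factors, -7.9e-05 with total counts, -0.0022 and -0.0045 with limma on log2(FPKM + 1) and (FPKM + 0.1), and 0.043 to 0.27 with a library left out. The median of all tested genes was itself -0.18 with total counts and -0.18 and -0.22 with limma, against 0.01. The sign turned for MMP11 (-0.080 with upper-quartile factors, -0.17 with total counts, -0.00031 with at least 10 counts in every library, and -0.098 and -0.11 with limma), for ADAMTS6 (-0.095 with total counts, -0.084 and -0.091 with limma) and for ADAM9 (-0.0050 with total counts, -0.0077 and -0.010 with limma). With a library left out, log2 fold changes ran from -0.11 to 0.13 for MMP11, -0.14 to 0.38 for ADAMTS6, -0.24 to 0.65 for ADAM9, -0.025 to 0.46 for ADAM17, -0.67 to 0.33 for ADAMTS7, -0.54 to 0.0086 for ADAMTS12, -0.76 to 0.076 for ADAMTS19, -0.94 to 0.098 for TIMP1, -0.23 to 1.42 for TIMP3, -0.18 to 0.82 for MMP2 and -0.82 to 5.91 for MMP13. The cause was not tested. ADAMTS3, ADAMTS17 and MMP19 gave no value with at least 10 counts in every library. Depth limits knockdown 2 most, where 3 counts equal 1.25 CPM.

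The titles end in 1 or 2 in both groups, but no label says that equal numbers share a source, and 2 pairs are too few to settle it from the data. Same-numbered libraries deviated together from their group means (correlation 0.564 across 11967 genes, which are not independent replicates). An edgeR fit with the number as a replicate block, chosen after seeing the data, called 1032 genes higher and 306 lower, among them 6 and 3 of the protease and TIMP genes, and gave LIN28A -3.08. It leaves 1 residual degree of freedom, and edgeR's estimate of the shared prior degrees of freedom was infinite, so the quasi-likelihood spread came from the trend over all genes and not from each gene's own libraries.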
